A study of Arabidopsis thaliana with 9 samples.

Results

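The genes described here are 10 loci of *Arabidopsis thaliana* that build the aliphatic glucosinolates, chosen by their known place in the pathway. Earlier results of these data were known when they were chosen. They are the transcription factor genes MYB28, MYB29 and MYB76, the chain elongation genes BCAT4, MAM1 and MAM3, and the core structure genes CYP79F1, CYP79F2, CYP83A1 and SOT17. All 10 were found through the RefSeq accessions on the array, among 25426 loci with a matched probe, and all 10 were tested. Together they had 13 probes, with 3 for MAM1, 2 for CYP79F1 and 1 for each of the others.

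Aliphatic glucosinolates are sulfur-rich defence compounds that Arabidopsis makes from methionine, and that myrosinase enzymes break down into toxic products when tissue is wounded. The side chain of methionine is first lengthened, the elongated amino acid is then turned into the glucosinolate core by cytochromes P450 and by enzymes that add sulfur, glucose and sulfate, and the side chain is modified last. MYB28, MYB29 and MYB76 are the R2R3 MYB factors that activate the genes of this chain, while a separate set of MYB factors and P450 enzymes makes the indole glucosinolates from tryptophan.

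Whole Col-0 seedlings, root and shoot together, were harvested at the age of 4 weeks. The first group was given NaCl at 150 mM over 6 h, the second the stress hormone abscisic acid (ABA) at 10 μM over 6 h, and the control group received water. Each group had 3 arrays, and the comparison asked which genes respond to salt, to ABA or to both. The methods describe the replicates as 3 portions of a single harvest of pooled plants, so the p-values measure only the spread between portions and need not reflect differences among plants.

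Each array was an Agilent oligo microarray read in 1 colour, and values are given as log2 signal, the log2 of the spot intensity after quantile normalization over all 9 arrays. Between 69.1% and 72.1% of the probes of an array were well above background, and the number of arrays limits the precision. A gene was called when its adjusted p, from limma with Benjamini-Hochberg adjustment over 22818 genes, was under 0.05 and its fold change was at least 2. The NaCl arrays shared 1 slide, read by the scanner 235 days ahead of the ABA and control slides, so the effect of NaCl and that of the slide or scan day cannot be told apart. The control arrays shared 1 slide as well and the ABA arrays lay on 2 others, so the effect of ABA and that of the slide cannot be told apart either. Of 6 stress and ABA marker genes, 5 were called higher with NaCl and 3 with ABA, where 9.92% and 0.837% of all genes were. HAI1, an ABA-induced phosphatase gene, was called in both, with a log2 fold change of 4.72 with NaCl and 5.55 with ABA. RD29B was called in both too, at 4.68 with NaCl and 5.08 with ABA. It was not well above background on any control array, so these sizes rest on signals at the background. RD29A was not called with NaCl (log2 fold change -0.22, adjusted p = 0.818). RD29A, RAB18 and ADH1 were not called with ABA (adjusted p = 0.265, 0.0708 and 0.312). The limits of slide and scan day apply to these calls too. All 5 shoot markers were well above background on every array. The root markers PIN2, EXPA7 and PRP3 were not well above background on any ABA or control array. With NaCl, PIN2, EXPA7 and PRP3 were well above background on 2, 1 and 2 of the 3 arrays, respectively.

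With NaCl, 9 of the 10 aliphatic glucosinolate genes were called lower and none was called higher. The methods' t-test called 7 of the 10 genes lower before adjustment and 1 after Benjamini-Hochberg adjustment. Among all genes, this t-test called 2443 lower before adjustment and 254 after it. With limma, 13.3% of all genes tested were called lower with NaCl and 9.92% higher, and 23.2% in either direction. The log2 fold changes of the 10 genes lay between -5.86 for MYB76, which was not well above background on any NaCl array, and -0.83 for MYB28, with a median of -2.55 against a median of -0.11 over all genes tested. All 10 genes had an adjusted p under 0.05, as had 39.6% of all genes, and MYB28 was the gene not called, since its adjusted p of 0.0455 was under the threshold but its fold change was not large enough. In 8 of the 10 genes all 3 NaCl arrays lay below all 3 control arrays, which was so for 29.8% of all genes measured on all 6 arrays; in MAM1 and SOT17 a masked spot left 2 arrays in a group. As the RNA came from whole plants, fewer cells of a type and less RNA per cell cannot be told apart.

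Among the transcription factors, the known activators of the whole pathway, MYB29 (AT5G07690) and MYB76 (AT5G07700) were called lower with NaCl. MYB29 had log2 signals of 6.58, 8.35 and 7.63 on the NaCl arrays, 10.05, 10.67 and 10.99 on the ABA arrays, and 10.78, 11.66 and 11.04 on the control arrays. The NaCl arrays did not overlap with either of the other groups, and MYB29 was 12.5-fold lower with NaCl than in the control (log2 fold change -3.64, standard error 0.46, adjusted p = 0.00106). MYB76 had log2 signals of 1.99, 2.95 and 1.51 with NaCl, 6.64, 8.29 and 7.53 with ABA, and 7.74, 8.56 and 7.72 in the control. It was not well above background on any NaCl array and well above background on every ABA and control array. The fitted log2 fold change of MYB76 with NaCl was -5.86 (interval -7.01 to -4.7, adjusted p = 0.000265), or 57.9-fold lower than in the control. The size of this decrease rests on NaCl signals at the background and on the scanner software's own background correction, so no lower limit is given. After normexp background correction MYB76 was again called lower, but its log2 fold change was -2.02.

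MYB28 (AT5G61420), whose product is a main activator of the aliphatic pathway, moved least. Its log2 signals were 7.92, 8.92 and 8.27 with NaCl, 8.38, 8.50 and 9.05 with ABA, and 9.12, 9.34 and 9.15 in the control. The NaCl arrays all lay under the control arrays and overlapped with the ABA arrays. The log2 fold change of MYB28 was -0.83 with NaCl (standard error 0.28, adjusted p = 0.0455), or 1.78-fold lower. When each array was left out in turn, MYB28 was called in 1 of 9 fits. That fit left out NaCl replicate 2, the highest of its NaCl arrays, and gave -1.11 with an adjusted p of 0.0172. Leaving out NaCl replicate 1 gave -0.61, and the adjusted p of the 9 fits reached 0.127. MYB29 and MYB76 are neighbouring genes on chromosome 5 in the TAIR10.1 annotation, with no other protein-coding gene between them, and MYB28 lies elsewhere on the same chromosome.

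The chain elongation genes were all called lower with NaCl. BCAT4 (AT3G19710, chromosome 3), the aminotransferase that takes methionine into the elongation cycle, had log2 signals of 10.10, 11.51 and 9.78 with NaCl, 12.83, 13.36 and 13.26 with ABA, and 13.51, 14.41 and 13.47 in the control. It was 10.1-fold lower with NaCl (log2 fold change -3.33, standard error 0.46, adjusted p = 0.00145), without overlap between the groups. MAM1 and MAM3 are adjacent genes on chromosome 5 for the methylthioalkylmalate synthases, which lengthen the chain, MAM3 also up to the long-chain products. MAM1 (AT5G23010) had log2 signals of 12.88 and 11.95 on NaCl replicates 2 and 3, 14.15, 14.72 and 14.43 with ABA, and 14.84, 15.37 and 14.75 in the control. Its spot on NaCl replicate 1 was marked non-uniform or outlying and left out, and the gene was 5.94-fold lower with NaCl (log2 fold change -2.57, standard error 0.34, adjusted p = 0.00175). The other 2 probes of MAM1 gave log2 fold changes of -2.76 and -3.28 with NaCl. MAM3 (AT5G23020, IMS2 in the reference annotation) had log2 signals of 9.99, 10.61 and 8.85 with NaCl, 10.89, 10.82 and 10.59 with ABA, and 11.93, 12.63 and 12.03 in the control. In MAM3 both treated groups lay under all control arrays, and NaCl replicate 2 overlapped with the ABA arrays. The gene was 5.21-fold lower with NaCl than in the control (log2 fold change -2.38, standard error 0.41, adjusted p = 0.00361).

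The core structure genes were called lower with NaCl as well. CYP79F1 (AT1G16410), the P450 that turns elongated methionine derivatives into aldoximes, had log2 signals of 8.99, 10.51 and 8.96 with NaCl, 12.63, 13.21 and 13.05 with ABA, and 13.65, 14.11 and 13.32 in the control. It had the largest fitted decrease among the members that were well above background on every array, 18.4-fold (log2 fold change -4.20, standard error 0.43, adjusted p = 0.000463), and its second probe gave a log2 fold change of -4.27. CYP79F2 (AT1G16400), its neighbour on chromosome 1, whose enzyme takes the long-chain substrates, had log2 signals of 3.32, 5.41 and 2.74 with NaCl, 5.33, 6.05 and 5.32 with ABA, and 6.45, 6.66 and 5.96 in the control. This gene was well above background on 1 of 3 NaCl arrays only, so its fitted change rests partly on signals at the background. That change was -2.54 on the log2 scale (standard error 0.62, adjusted p = 0.0145). After normexp background correction it was -0.70 and not called. CYP79F2 was called in 12 of the 15 alternatives, other than leaving out an array, in which it was tested. CYP79F1 and CYP79F2, like MAM1 and MAM3, are closely related copies in tandem, and how far a probe of one also binds RNA of the other was not tested.

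CYP83A1 (AT4G13770, chromosome 4), the P450 that oxidizes the aldoximes, had log2 signals of 13.02, 13.64 and 12.52 with NaCl, 14.35, 14.68 and 14.60 with ABA, and 15.30, 15.54 and 14.87 in the control. The 3 groups did not overlap in this gene, with NaCl lowest and the control highest, and it was 4.52-fold lower with NaCl than in the control (log2 fold change -2.18, standard error 0.30, adjusted p = 0.0014). SOT17 (AT1G18590, chromosome 1), a sulfotransferase of the final core step, had log2 signals of 11.13, 10.81 and 10.46 with NaCl, 11.50, 11.54 and 11.77 with ABA, and 12.56 and 12.03 on control replicates 1 and 3. Its spot on control replicate 2 was masked. SOT17 was 2.83-fold lower with NaCl (log2 fold change -1.50, standard error 0.25, adjusted p = 0.00445), the smallest of the called decreases among the 10 genes.

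**Figure D1:**
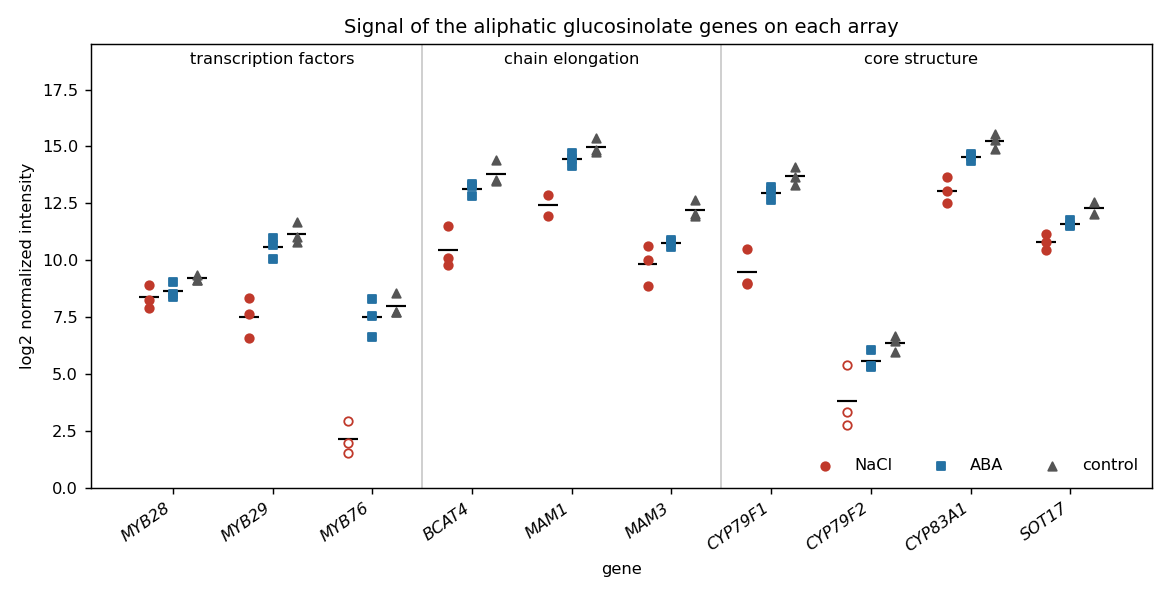
Log2 signal (vertical axis, normalized intensity) of the 10 genes (horizontal axis) on each array, with NaCl as circles, ABA as squares and control as triangles, and bars at the group means; open symbols mark groups that were not well above background on all 3 arrays. MYB76 lay between 1.51 and 2.95 with NaCl and between 7.72 and 8.56 in the control, and MYB28 showed the least separation.

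The decrease with NaCl did not rest on 1 array. When each of the 9 arrays was left out in turn, between 9 and 10 of the 10 genes were called lower, and the median log2 fold change lay between -3.19 and -2.05. In these fits 4422 to 6001 of all genes were called with NaCl in either direction. The NaCl portions differed among themselves in these genes: NaCl replicate 2 was the highest of the NaCl arrays in 8 of the 9 members with 3 NaCl spots, and NaCl replicate 3 the lowest in 7 of them. The median SD between arrays was 0.808 for the 10 genes and 0.286 for all genes with NaCl, 0.291 and 0.223 with ABA, and 0.376 and 0.255 in the control.

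A root marker and some markers of the time of day were also called with NaCl. The 3 tested of 6 root marker genes, summed, had log2 signals of 8.02 to 11.78 with NaCl, 6.01 to 6.67 with ABA and 6.61 to 7.78 in the control, and COBL9, a root hair gene, was called higher with NaCl (log2 fold change 3.30, adjusted p = 0.00371). COBL9 was well above background on all 3 NaCl arrays, 1 control array and no ABA array. It was therefore tested only through its NaCl signals, and the size of its change rests partly on control signals at the background. CASP1 and TIP2;3, the other tested root markers, had adjusted p of 0.122 and 0.14. PI, a floral homeotic gene and the tested one of 4 flower markers, had a log2 signal of 11.04 on NaCl replicate 3 and at most 6.67 on every other array, and was not called (adjusted p = 0.171). Of the other flower markers, AP1 was above background on 1 array of each group, AG on 1 NaCl, 1 ABA and 2 control arrays, and AP3 on 1 NaCl, 0 ABA and 1 control arrays. AP1, AG and AP3 also had their highest log2 signals on NaCl replicate 3, at 9.96, 7.31 and 9.08. On every other array they were at most 7.24, 4.43 and 6.21, respectively. The 5 shoot markers, summed, lay between 19.55 and 19.60 with NaCl, 19.76 and 19.77 with ABA, and 19.03 and 19.81 in the control. Of 8 clock genes, 4 were called higher and 1 lower with NaCl, or 1 higher and 3 lower with the authors' series table, with ELF4, an evening clock gene, at a log2 fold change of 4.1 (adjusted p = 4.23e-05) and LHY, a morning clock gene, at -1.29 (adjusted p = 0.00161), and none of them was called with ABA, against 1 higher with the authors' series table or with scaling to the 75th percentile and 3 higher without scaling. The part of these markers in the values of the glucosinolate genes was not tested.

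With ABA, none of the 10 genes was called, although all 10 fitted log2 fold changes were below 0 after quantile normalization, and without any scaling between arrays MYB28 stood at 0.03 and MYB76 at 0.17. Over all genes, 1.57% were called with ABA, 0.732% lower and 0.837% higher. The log2 fold changes of the 10 genes lay between -1.43 for MAM3 and -0.52 for MYB76, with a median of -0.67 against -0.11 over all genes tested. Before adjustment, limma gave p under 0.05 for 3 of the 10 genes and for 4235 of all 22818 genes. The methods' t-test called 1 of the 10 genes unadjusted and 0 after Benjamini-Hochberg adjustment, when 852 and 0 genes were called in all. In 6 of the 10 genes the ABA arrays all lay below the control arrays, which was so for 20.2% of all genes measured on all 6 arrays.

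MAM3 stood lowest with ABA. Its ABA arrays spanned 10.59 to 10.89 and its control arrays 11.93 to 12.63, and it was 2.70-fold lower with ABA (log2 fold change -1.43, 95% interval -2.38 to -0.48, adjusted p = 0.12). The call of MAM3 depended on the estimate of the spread: without NaCl replicate 3 the log2 fold change was again -1.43 and the adjusted p was 0.0404. The adjacent MAM1 had a log2 fold change of -0.55 with ABA (95% interval -1.26 to 0.16, adjusted p = 0.392), and the difference between the responses of MAM3 and MAM1 was not tested.

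The 9 other genes had log2 fold changes of -0.79 to -0.52 with ABA, and their adjusted p lay between 0.212 for SOT17 and 0.632 for MYB76. Among the transcription factors, MYB28 was at -0.56, MYB29 at -0.60 and MYB76 at -0.52, and the ABA arrays of MYB29 and MYB76 overlapped with the control arrays. The 95% interval of MYB29 was -1.66 to 0.47 and that of MYB76 -1.67 to 0.63, so that a decrease of over 2-fold lay within both intervals. BCAT4 was at -0.65, CYP79F1 at -0.73, CYP79F2 at -0.79, and CYP83A1 and SOT17 both at -0.69. The ABA and control arrays were scanned on the same day but on different slides. The fit of these 6 arrays alone, which keeps the same log2 fold changes by construction, again called none of the 10 genes, when 217 genes were called in all.

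**Figure D2:**
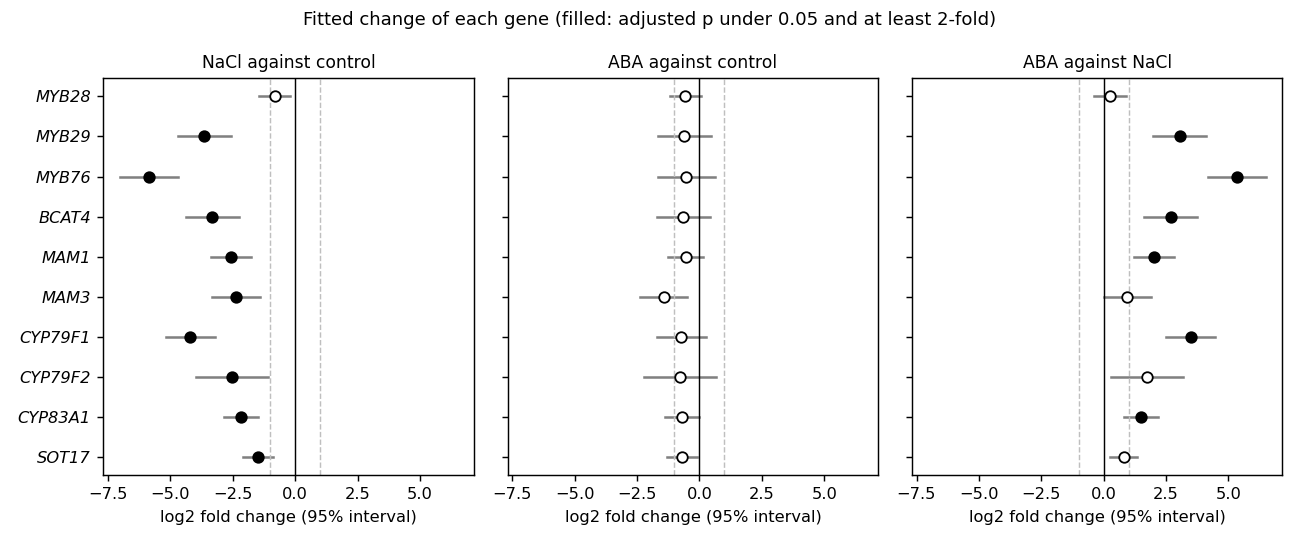
Fitted log2 fold change (horizontal axis, with 95% interval) of each of the 10 genes, with NaCl set against the control on the left, ABA against the control in the middle and ABA against NaCl on the right; filled points were called, and dashed lines mark a 2-fold change. The decreases with NaCl reached -4.20 among the genes well above background on every array, those with ABA reached -1.43, the MYB76 points on the left and right rest on NaCl signals at the background, and MYB28 and MYB76 with ABA were above 0 when the arrays were not scaled.

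Set directly against NaCl, ABA left the aliphatic genes higher: 6 of the 10 were called higher and none lower, where 10.5% of all genes were called higher, 9.82% lower and 20.3% in either direction. The median log2 fold change of ABA against NaCl was 1.88 for the 10 genes and 0 for all genes tested. MYB76 had a fitted log2 fold change of 5.34 (interval 4.18 to 6.49, adjusted p = 0.000485) with the scanner software's background correction. The size of this difference rests on NaCl signals at the background, and normexp correction gave a log2 fold change of 1.68 that was called too. CYP79F1 was 11.1-fold higher (log2 fold change 3.48, standard error 0.43, adjusted p = 0.00116), and MYB29 was 8.28-fold higher (log2 fold change 3.05, standard error 0.46, adjusted p = 0.00258). BCAT4, MAM1 and CYP83A1 were called too, at 2.69, 2.02 and 1.49. The 4 genes that were not called were CYP79F2 at 1.74 (adjusted p = 0.0609), MAM3 at 0.95 (adjusted p = 0.108), SOT17 at 0.81 (adjusted p = 0.0315) and MYB28 at 0.27 (adjusted p = 0.476). The interval of MYB28 ran from -0.37 to 0.91. In 6 of the 10 genes all ABA arrays lay above all NaCl arrays, as in 25.5% of all genes. Leaving out NaCl replicate 2 raised the number of called genes among the 10 to 8, adding MAM3 and CYP79F2, when 3744 genes were called in all.

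The rest of the elongation cycle went the same way with NaCl. All 7 other chain elongation genes were called lower with NaCl, with a median of -3.16, and none was called with ABA, with a median of -0.76. IPMI SSU3 and IPMI SSU2, small subunits of the isopropylmalate isomerase, were lower with NaCl at log2 fold changes of -3.63 and -3.16 (adjusted p = 0.000748 and 0.00066). IPMDH1 and IPMDH3, isopropylmalate dehydrogenases, were at -3.35 and -2.93 (adjusted p = 0.000104 and 0.000111), and IPMDH1 had log2 signals of 12.06, 12.72 and 12.30 with NaCl, 14.69, 14.97 and 14.93 with ABA, and 15.71, 16.00 and 15.41 in the control. BAT5, the plastid transporter that carries the oxo acids of this cycle, fell by 3.33 (adjusted p = 0.00071). IPMDH3 is known mainly from leucine synthesis.

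Of the 7 other core structure genes, 5 were called lower with NaCl, with a median of -1.47, and none with ABA, with a median of -0.39. The glutathione transferases GSTU20 and GSTF11 were lower with NaCl at log2 fold changes of -4.32 and -3.57 (adjusted p = 0.000205 and 0.001). GSTU20 had log2 signals of 10.12, 11.37 and 11.36 with NaCl, 14.30, 14.27 and 14.65 with ABA, and 15.04, 15.64 and 15.15 in the control, and was lowest with NaCl without overlap. UGT74C1, a glucosyltransferase, was at -1.75 (adjusted p = 0.00238), SUR1, the C-S lyase that the aliphatic and indole branches share, at -1.47 (adjusted p = 0.00108), and the peptidase GGP1, with control replicate 1 masked, at -1.35 (adjusted p = 0.013). APK1 and APK2, the kinases that make the sulfate donor of the sulfotransferases, were both called lower with NaCl, at -1.78 (adjusted p = 0.00416, NaCl replicate 3 masked) and -2.41 (adjusted p = 0.000474), and neither with ABA.

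Genes that modify the side chain did not move as a group. Of 10 listed, 7 were tested, with 2 called lower and 1 higher with NaCl and a median of -0.16, against 3 lower and 0 higher with the authors' table. The S-oxygenases FMO GS-OX1 and FMO GS-OX3 were lower with NaCl at log2 fold changes of -3.45 and -2.91 (adjusted p = 0.00077 and 0.000773). AOP1, a dioxygenase gene of the AOP cluster, was higher with both treatments, at 1.31 with NaCl (adjusted p = 0.00328) and 1.15 with ABA (adjusted p = 0.0472). FMO GS-OX2 was called higher with ABA than with NaCl, at 1.29 (adjusted p = 0.049), and 3 genes of this list were called higher in that comparison, against 2 after scaling to the 75th percentile. BZO1 was well above background on no NaCl array, 2 ABA arrays and 1 control array, and AOP2 and AOP3 had no matched probe.

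Among 7 other regulators, 2 were called higher and 1 lower with NaCl, against 1 higher and 3 lower with the authors' series table, on whose scale the median of all genes with NaCl was -0.95, and none was called with ABA. MYC2, a bHLH factor that acts with the MYB proteins, had log2 signals of 14.82, 15.17 and 14.24 with NaCl, 13.15, 12.55 and 12.47 with ABA, and 12.34 and 11.85 on control replicates 1 and 3, its spot on control replicate 2 being masked. It was called higher with NaCl (log2 fold change 2.64, standard error 0.34, adjusted p = 0.00162), opposite in direction to MYB29 and MYB76. The related MYC4 was called higher at 1.06 (adjusted p = 0.0233), a call that was close to the fold threshold, and IQD1, a calmodulin-binding regulator, was called lower at -1.56 (adjusted p = 0.00358). Of the 3 glucosinolate transporters, GTR1 was called higher with NaCl at 1.49 (adjusted p = 0.0198), where the authors' table gave 0 higher and 1 lower, and GTR1 and GTR3 were called lower with ABA than with NaCl, at -1.27 (adjusted p = 0.04) and -1.32 (adjusted p = 0.0273). Neither of these calls was made without scaling or with the authors' table.

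Genes of glucosinolate breakdown were called in both directions with NaCl, with 2 higher and 3 lower among 11 tested of 14 listed. The myrosinases TGG1 and TGG2, which are abundant in leaves, were lower at log2 fold changes of -2.55 and -1.72 (adjusted p = 0.00752 and 0.0133), and TGG1 had log2 signals of 12.68, 14.03 and 15.13 with NaCl, 16.14, 16.49 and 16.69 with ABA, and 16.75, 16.43 and 16.29 in the control. PEN2, an atypical myrosinase, fell by 1.24 (adjusted p = 0.00584). BGLU30, a β-glucosidase gene that is known to respond to sulfur shortage and darkness, had log2 signals of 11.18, 9.17 and 10.96 with NaCl, 7.71, 5.10 and 5.83 with ABA, and 5.00, 2.08 and 3.14 in the control. Its log2 fold change was 7.03 with NaCl (standard error 0.94, adjusted p = 0.00129), and as it was well above background on 1 of 3 control arrays the size rests partly on signals at the background. NSP5, a nitrile-specifier protein gene with control replicate 2 masked, was called higher with NaCl at 2.71 (adjusted p = 0.00129) and with ABA at 1.77 (adjusted p = 0.0495), the ABA call being lost with scaling to the 75th percentile and with the authors' table. TGG4 was not well above background on any array, and TGG5, a root myrosinase, was well above background on 2 NaCl arrays and on no ABA or control array.

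In the indole branch, 7 of 15 genes were called lower with NaCl and none higher, with a median of -1, against 12 lower and a median of -1.95 with the authors' series table, and 1 was called lower with ABA. CYP81F2, which hydroxylates the indole ring, had log2 signals of 7.57, 8.08 and 7.14 with NaCl, 10.01, 10.36 and 10.11 with ABA, and 12.62, 11.29 and 12.36 in the control. It was lower with NaCl at a log2 fold change of -4.49 (adjusted p = 0.000225) and with ABA at -1.93 (adjusted p = 0.0465). IGMT1 and IGMT2, methyltransferases that follow it, were lower with NaCl at -3.22 and -1.76 (adjusted p = 0.000521 and 0.00994), IGMT2 having control replicate 1 masked, GSTF10 at -1.91 (adjusted p = 0.00194), and MYB122, a factor of the indole branch that was well above background on 1 NaCl array only, at -2.84 (adjusted p = 0.0434). No test compared the indole branch with the aliphatic genes.

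**Figure D3:**
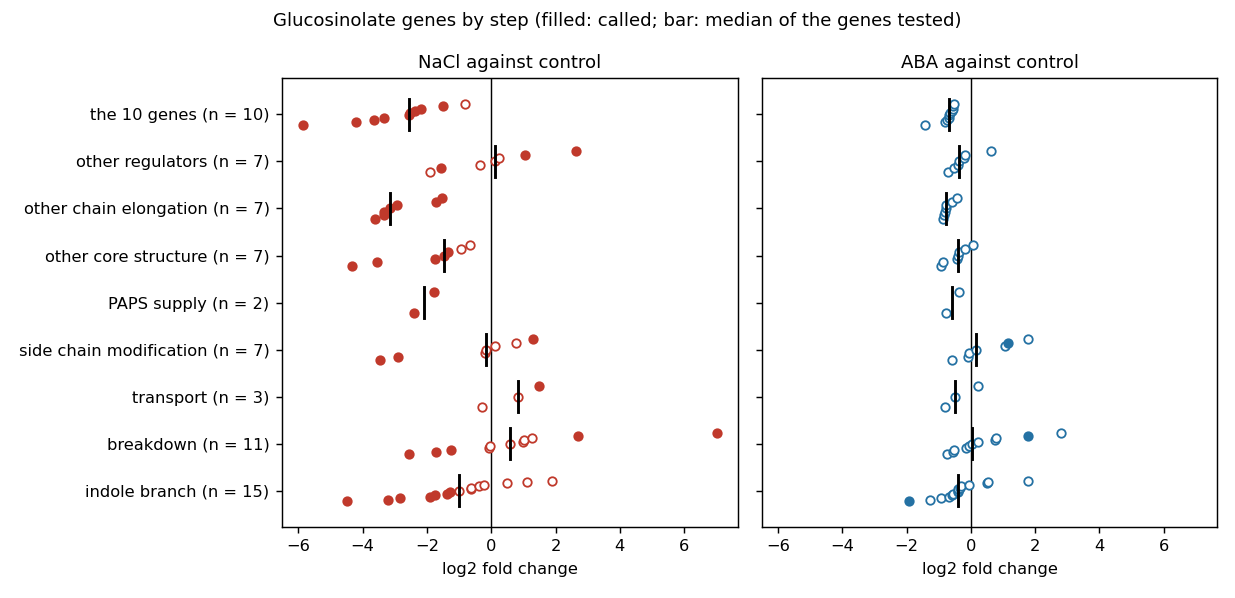
Log2 fold change (horizontal axis) of every tested gene by pathway step for NaCl against control and ABA against control; filled points were called and black bars are medians over the tested genes. With NaCl the median was -2.55 for the 10 genes and -3.16 for the other chain elongation genes, and it was 0.59 for breakdown; with the authors' own series table, which scales the NaCl arrays differently, the medians with NaCl were -3.63, -4.1 and -0.37.

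The 10 genes followed each other closely over the 9 arrays. The Pearson correlation of their log2 signals lay between 0.622 and 0.996 over 45 pairs, with a median of 0.898. These values describe the arrays on which both spots were kept, at most 9 in 3 groups, and all pairs share the difference between treatments. CYP79F1 and MAM1 were the closest pair, and the lowest correlations were those of MYB28 with SOT17 and with MAM1, at 0.622 and 0.623. The mean deviation of the 10 genes from their own means, over 9 genes where a spot was masked, was -1.97, -0.94 and -2.23 with NaCl, 0.18, 0.69 and 0.56 with ABA, and 1.09, 1.65 and 0.94 in the control. No array of one group overlapped with another group on this scale.

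The loci nearest to this mean profile, by Pearson correlation over the 9 arrays among 17319 loci, were mainly other genes of the same pathway. BAT5 was nearest with r = 0.995, followed by GSTF11 and IPMI SSU2 with r = 0.994, IPMI SSU3 with r = 0.993 and FMO GS-OX1 with r = 0.991. IPMDH1 stood at rank 10 with r = 0.984. The 4 others among the 10 nearest were PMSR2 (AT5G07460), a methionine sulfoxide reductase gene, SGR4 (AT5G39510), a vesicle transport SNARE gene, AT3G58980 and AT2G29670, each with r = 0.987. AT3G58980 is the direct neighbour of IPMI SSU3 on chromosome 3. PMSR2 was lower with NaCl at a log2 fold change of -2.62 (adjusted p = 0.00169), AT2G29670 at -1.87 (adjusted p = 0.000981) and AT3G58980 at -1.75 (adjusted p = 0.00146), while SGR4 had a log2 fold change of -0.58 with NaCl (adjusted p = 0.0099), since a correlation does not weigh the size of a change.

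**Figure D4:**
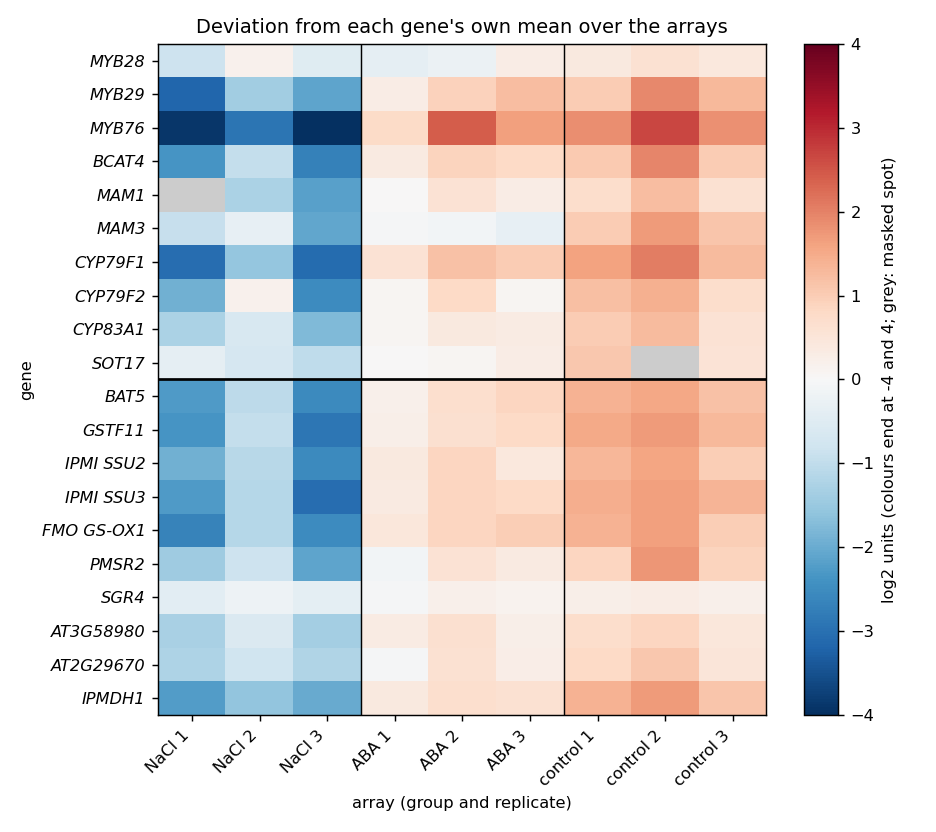
Deviation of log2 signal from each gene's own mean (colour, blue lower and red higher, grey for a masked spot) on the 9 arrays for the 10 genes above the line and the 10 loci with the nearest profile under it. The mean deviation of the 10 genes was -0.94 on NaCl replicate 2 and -2.23 on NaCl replicate 3, and 1.65 on control replicate 2.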

How the data were processed

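Per the file headers, the authors obtained the intensity values with Agilent Feature Extraction 10.7.3.1, corrected for local background and for spatial and multiplicative trends but not scaled between arrays. The deposited series table holds the authors' log2 values, in which the NaCl columns follow another distribution than the control and ABA columns, and its ABA columns match the array files in another replicate order, so it served only as an alternative. Marks of 0 or 1 per spot, as deposited, give the spots above background, non-uniform or outlying, and the last 2 kinds were masked. Log2 intensities were quantile-normalized over 9 arrays with limma 3.58.1 in R 4.3.3 (with version 1.17.8 of data.table). Python 3.11.15, matplotlib 3.10.9 and pandas 2.3.3 drew the figures.

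Of 43603 probes, 34392 matched a locus of RefSeq's annotation of assembly TAIR10.1, and others kept their own accession. Probes had to be well above background throughout at least 1 group, and each gene took its brightest such probe. The limma fit of all 9 arrays had no covariates (2.04 prior degrees of freedom) and was tested on simulated data. Probe sequences were not used here.

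Named were all 10 genes, up to 5 called genes of the largest change per list and comparison, list genes not above background in a whole group, and the 10 loci nearest in profile; PI, AP1 and AG were named after their values were seen. The 10 genes and the lists were chosen with earlier results of these data known. The alternatives were other scalings, normexp background correction (offset 50, on the median spot signals), probe filters and choices, other fits, the methods' t-test and each array left out. No permutation p can be under 0.1 with 3 arrays against 3.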

Additional observations from a re-analysis of the deposited data

How the results depend on the processing

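Over 16 alternatives other than leaving out an array, the log2 fold changes of the 10 genes with NaCl stayed below 0, and those of ABA against NaCl above 0. Of these values, 144 of 158 with NaCl, 153 of 158 with ABA and 141 of 158 for ABA against NaCl kept their direction and their side of the thresholds. Some alternatives reused the same log2 fold changes, so in these the direction was fixed in advance. They were the methods' t-test, no fold threshold, only the arrays of the 2 groups and the background filters. The exceptions in direction were MYB28 at 0.03 and MYB76 at 0.17 with ABA when arrays were not scaled, where the median of all genes was 0.48 and all 10 genes lay below it. Without scaling, the median of the 10 genes with ABA was -0.09 and 1386 genes were called in all, and for ABA against NaCl all 10 genes and 8926 genes in all were called, with medians of 2.69 for the 10 genes and 0.78 for all genes. The authors' series table gave 11309 calls and a median of -3.63 for the 10 genes with NaCl, and 10362 calls, 10 of the 10 genes and a median of 2.99 for ABA against NaCl, with all-gene medians of -0.95 and 0.91. Of its calls, 10319 with NaCl were lower and 990 higher, against 3031 and 2264 with quantile normalization over 9 arrays, 3948 and 1862 without scaling, and 2501 and 2634 after scaling to the 75th percentile. The split with ABA was 167 lower and 191 higher, against 60 and 1326 without scaling and 136 and 232 with the series table, and that of ABA against NaCl was 2387 higher and 2240 lower, against 8101 and 825 without scaling and 9608 and 754 with the table. Normexp correction called 3350 genes with NaCl and 2846 for ABA against NaCl. Without a fold threshold 9027 and 8123 genes were called.

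With ABA, 1 of the 10 genes, MAM3, was called with array weights, with the slide as a random block and by the methods' t-test before adjustment, when 746, 1353 and 852 genes were called in all. The slide block had a correlation of -0.34, which lowers the standard errors. As the NaCl arrays and the control arrays each shared 1 slide, only the ABA arrays could inform this correlation. The block therefore cannot separate slide from treatment. With array weights the median for ABA against NaCl was 1.41. After Benjamini-Hochberg adjustment the methods' t-test called 595 genes with NaCl, 0 with ABA and 1227 for ABA against NaCl, and 1, 0 and 1 of the 10 genes. The fit of ABA and control arrays alone called 217 genes. Same-numbered arrays did not deviate together, with correlations between -0.288 and 0.225. The ABA numbers differ between the array files and the series table, so these correlations cannot exclude a pairing in another order. The replicate block called 206 genes with ABA and none of the 10. With NaCl it called 9 of the 10 genes and 5085 in all, and for ABA against NaCl 7 of the 10 and 4435 in all.

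Leaving out each array in turn gave medians of the 10 genes between -3.19 (without NaCl replicate 2) and -2.05 (without NaCl replicate 3) with NaCl and between 1.38 (without NaCl replicate 3) and 2.51 (without NaCl replicate 2) for ABA against NaCl. With ABA, 0 to 1 of the 10 genes were called, and 84 (without ABA replicate 1) to 383 genes in all (without NaCl replicate 3). Signal over background limits MYB76 and CYP79F2 with NaCl, which were absent from the genes tested when a signal above background was required on all 9 arrays. The cause of these differences was not tested.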
